A study of Mus musculus with 6 samples.

Results

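Genes of intraepithelial T cells and of cytotoxic lymphocytes were examined in RNA from mouse small intestinal crypt cells. Membership came from 37 gene symbols matched exactly in the authors' gene table and from every row whose symbol starts with Trdc, Trac, Trbc or Tcrg-, the constant and gamma chain genes of the T cell receptor. All 37 symbols were found and the prefixes added 14 rows, which gave 51 of the 55331 genes in the table. The 3 WT samples came from Ptbp1f/f mice without Cre, and the 3 PTBP1_KO samples from Ptbp1f/f;Vil-creER+/- mice. In Vil-creER mice a Cre recombinase that needs tamoxifen is made under villin regulatory sequence, which is active in intestinal epithelium and not in T cells. Which cells made the members' reads in this bulk RNA was not measured. Mice of both groups were C57BL/6, 60 days old, and were given tamoxifen at 100 mg/kg on 2 days in a row, with crypt cells taken 20 h after the later injection. Villi were scraped away and crypts released with EDTA, without a sort for or against leukocytes in the described protocol. The design asks what PTBP1, an RNA-binding protein that controls splicing, does in the regenerating intestinal epithelium.

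Intraepithelial lymphocytes are T cells that sit between the epithelial cells of the gut. Many carry a gamma delta T cell receptor or a CD8 alpha homodimer, are held in place by the integrin of Itgae and Itgb7 binding E-cadherin, and store granzymes in cytotoxic granules. The receptor chains pair with the CD3 proteins, which pass the signal through the kinases LCK and ZAP-70 and the scaffold LAT. The factors RUNX3 and T-bet take part in the CD8 and cytotoxic gene programme.

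Each gene has 1 FPKM value per group (fragments scaled by transcript length and library size), which the authors made from the 3 libraries of that group. No spread between replicates can be attached to these levels, and the depth behind them is unknown. The q-values are the authors' p-values adjusted over the 15460 genes they tested, and a gene is said to have risen or fallen only where its q-value was below 0.05. The test was run for 46 of the 51 members. Themis, Tcrg-V3, Tcrg-V5, Tcrg-V6 and Tcrg-C3 were listed as not tested. The targeted gene itself had 230.0 FPKM in WT and 122.8 in PTBP1_KO. The markers Cd3e, Cd8a and Gzma were present in WT at 5.66, 4.30 and 54.9 FPKM, against 1220 FPKM for the epithelial adhesion gene Epcam, so the T cell genes were read in a preparation dominated by epithelial RNA. In such bulk RNA, more cells of a type and more RNA per cell cannot be told apart.

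Across the module the PTBP1_KO value was the higher one nearly throughout. The members were chosen with earlier results of these data known, so the shares below describe the list and are no test of it. The PTBP1_KO value was above the WT value for 45 of the 46 tested members, against 54.7% of all tested genes. Over all 51 rows 47 were higher, 2 were lower and 2 were listed at 0 in both groups. Of the 46, 5 rose and 0 fell: Gzma, Gzmb, Cd7, Cd8a and Ccr4. Over all tested genes 0.537% passed the same threshold in either direction and 0.388% passed it as higher in PTBP1_KO. An unadjusted p below 0.05 in the authors' deposited table was held by 16 members, all of them higher in PTBP1_KO, where all tested genes gave 4.35% in either direction and 2.69% as higher. The median of log2((PTBP1_KO + 1)/(WT + 1)) was 0.38 over the tested members and 0.02 over all tested genes. The pseudocount of 1 FPKM pulls low genes towards 0, and without it, from the authors' deposited table, the median log2 fold change was 0.62 for members and 0.02 for all tested genes. Of the tested members 25 were at least 1.5-fold higher and 6 were at least 2-fold higher. The summed FPKM of all 51 members was 249.8 in WT and 401.7 in PTBP1_KO, and Gzma alone made up 22.0% and 25.2% of it.

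**Figure D1:**
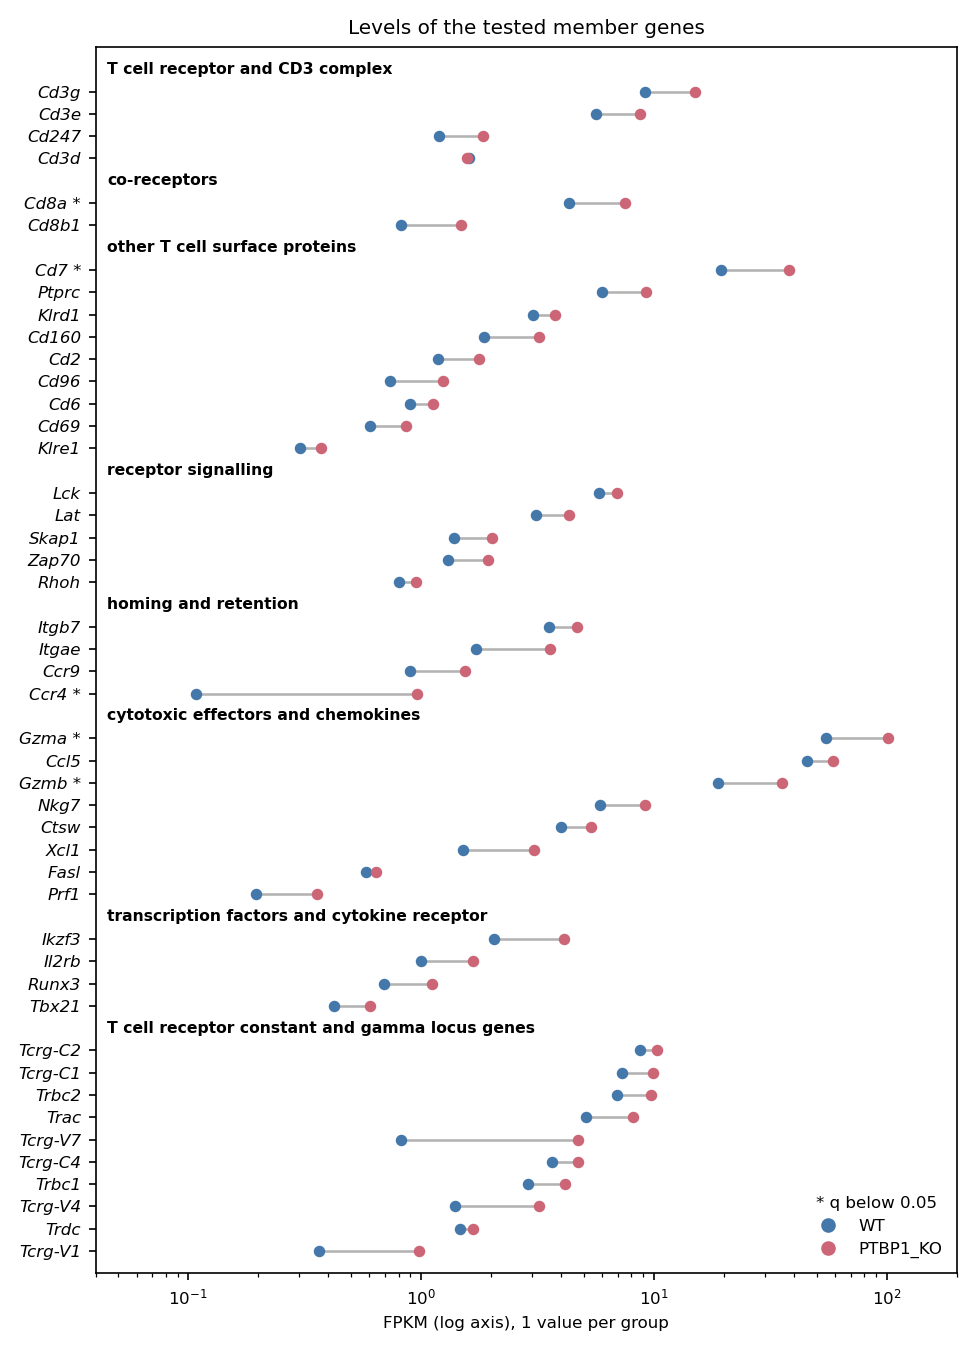
FPKM of the 46 tested members on a log axis, grouped by role, with WT in blue and PTBP1_KO in red, joined by a line. Each point is the authors' single value for a group, so no error bar can be drawn. A star marks the 5 members with q below 0.05, and Cd3d is the member whose PTBP1_KO point does not lie to the right of WT.

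The granzymes, serine proteases that cytotoxic cells deliver into their targets, were among the highest members and rose together. Gzma (ENSMUSG00000023132.8, chromosome 13, 113093825 to 113100981, minus strand) was listed at 54.9 FPKM in WT and 101.4 in PTBP1_KO. The authors' deposited table gives it a log2 fold change of 0.89 with p = 5e-05 and q = 0.0125. Gzmb (ENSMUSG00000015437.5, chromosome 14, 56258838 to 56262260, minus strand) was listed with 18.9 and 35.3 FPKM, a log2 fold change of 0.90 with p = 5e-05 and q = 0.0125 in the authors' deposited table. The ratio of Gzma to Gzmb FPKM was 2.91 in WT and 2.87 in PTBP1_KO, so both moved by nearly the same factor. The smallest p-value that the authors' deposited table holds is 5e-05, and all 5 called members share it, so the table does not rank them.

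Other genes of killing and of recruitment were higher in PTBP1_KO without passing the threshold. Ccl5, a chemokine that draws T cells and is stored by memory CD8 cells, was second in level, with 45.4 FPKM in WT and 58.6 in PTBP1_KO, and the authors' deposited table gives it p = 0.0512 and q = 0.9998. Nkg7, a protein of cytotoxic granules, had 5.85 and 9.14 FPKM. Ctsw, a protease of cytotoxic lymphocytes, had 3.97 and 5.34 FPKM, and the authors' counting places it in 1 locus with Fibp. Xcl1, the chemokine lymphotactin, showed the largest log2 fold change of this role, with 1.52 FPKM in WT and 3.05 in PTBP1_KO. In the authors' deposited table that change is 1.01 with p = 0.112 and q = 0.9998. Fasl, the death ligand, had 0.582 and 0.637 FPKM, and the authors' deposited table gives it the smallest log2 fold change of the role, 0.13 with p = 0.791. Prf1, the pore-forming protein that lets granzymes into a target cell, was listed at only 0.196 FPKM in WT and 0.356 in PTBP1_KO.

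The upstream sequences of the granzyme genes are shown because these are the 2 called members of the effector role and both hold letters of the RUNX motif. They run 5′ to 3′ over the 250 bases before the RefSeq start site (GRCm38.p6, both on the minus strand, chr13:113100982-113101231 for Gzma and chr14:56262335-56262584 for Gzmb), and capitals mark TGTGGT or its reverse complement ACCACA.
Gzma: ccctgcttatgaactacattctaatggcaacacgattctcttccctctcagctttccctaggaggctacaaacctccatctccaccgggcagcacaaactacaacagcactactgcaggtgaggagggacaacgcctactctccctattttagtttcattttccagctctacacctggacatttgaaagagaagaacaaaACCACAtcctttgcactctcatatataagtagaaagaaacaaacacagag
Gzmb: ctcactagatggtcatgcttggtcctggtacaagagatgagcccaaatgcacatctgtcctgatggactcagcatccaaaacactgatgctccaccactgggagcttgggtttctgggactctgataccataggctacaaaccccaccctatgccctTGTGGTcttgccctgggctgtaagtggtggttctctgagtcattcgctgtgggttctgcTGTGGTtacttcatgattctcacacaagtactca
The match in Gzma begins at base -50 from the start site, and those in Gzmb at -93 and -34.

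RefSeq promoter windows, from 250 bases before to 50 after each start, were at hand for 25 members, some with several starts, which gave 33 windows. TGTGGT was found on either strand in 13 of the 33 (39.4%), in 12 genes, against 16.8% of all 32851 windows of that length. The genes were Cd160, Cd96, Gzma, Gzmb, Klre1, Lat, Lck, Nkg7, Prf1, Runx3, Xcl1 and Zap70. AGGAAG, a core of the ETS motif, was in 21 member windows (63.6%) against 35.4% of all windows, and Ccr4 held it at -107 (as CTTCCT) and -47. CAGCTG, an E protein motif, was in 18.2% of member windows and 16.3% of all, and in Cd8a it spans the start site from -2. The T-box motif AGGTGTGA was in 1 member window (3.03%), that of Nkg7, against 1.28% of all windows. All 4 were searched on both strands, and no matches overlapped in the called genes. These counts describe letters in a window, were not tested, and are no measure of binding.

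Among receptor genes the CD3 complex was detected in full. Cd3e (ENSMUSG00000032093.7, chromosome 9, 44998740 to 45009627, minus strand), a signalling chain of the complex, was listed with 5.66 FPKM in WT and 8.68 in PTBP1_KO, and the authors' deposited table gives a log2 fold change of 0.62 with p = 0.00605 and q = 0.3997. Cd3g had 9.11 and 15.0 FPKM, a log2 fold change of 0.72 with p = 0.00055 and q = 0.0842 in the authors' deposited table. It was the member nearest to the threshold from outside, and inside it all 5 called members shared q = 0.0125, the smallest value in the authors' deposited table. Cd247, the zeta chain, had 1.20 and 1.84 FPKM, and its locus in the authors' counting also holds Pou2f1. Cd3d was the only tested member with a lower PTBP1_KO value, 1.60 FPKM in WT and 1.58 in PTBP1_KO, and its p was 0.959 in the authors' deposited table. Of the 4 chains 3 were thus higher by 1.53 to 1.64 times, while 0 of the 4 passed the threshold, and 2 had an unadjusted p below 0.05 in the authors' deposited table.

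Both chains of the CD8 co-receptor were higher, and the alpha chain rose. Cd8a (ENSMUSG00000053977.13, chromosome 6, 71373427 to 71379173, plus strand) was listed with 4.30 FPKM in WT and 7.52 in PTBP1_KO, with a log2 fold change of 0.81, p = 5e-05 and q = 0.0125 in the authors' deposited table. Cd8b1, the beta chain of conventional CD8 T cells, had 0.821 and 1.49 FPKM, and the authors' deposited table gives a log2 fold change of 0.86 with p = 0.0215 and q = 0.769. Cd8a exceeded Cd8b1 by 5.23 times in WT and by 5.05 times in PTBP1_KO on the FPKM scale. The excess of alpha over beta chain RNA was therefore nearly the same in both groups, and the difference between the groups was not tested.

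The chains of the receptor itself were all higher in PTBP1_KO where tested, 10 of 10, and 0 of the 10 rose at q below 0.05 while 1 had an unadjusted p below 0.05 in the authors' deposited table. Both lineages were present. For alpha beta T cells, Trac had 5.12 FPKM in WT and 8.12 in PTBP1_KO, and the authors' deposited table gives a log2 fold change of 0.66, p = 0.0516 and q = 0.9998. Trbc1 had 2.87 and 4.16 FPKM with a log2 fold change of 0.54 and p = 0.0985 in the authors' deposited table. Trbc2 had 6.97 and 9.72 FPKM with a log2 fold change of 0.48 and p = 0.0735, again from the authors' deposited table. These beta constant genes are near-identical copies, so the split of reads between them is uncertain, and their sum was 9.83 FPKM in WT and 13.9 in PTBP1_KO, 1.41 times as much.

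For gamma delta T cells the delta constant gene Trdc differed least of the tested receptor rows, with 1.48 FPKM in WT and 1.67 in PTBP1_KO, and the authors' deposited table gives a log2 fold change of 0.18 with p = 0.438. Tcrg-C1 had 7.31 and 9.86 FPKM, a log2 fold change of 0.43 with p = 0.0633 in the authors' deposited table. Tcrg-C2 had 8.71 and 10.3 FPKM, with a log2 fold change of 0.24 and p = 0.302 per the authors' deposited table. Tcrg-C4 had 3.66 and 4.73 FPKM, with a log2 fold change of 0.37 and p = 0.192 in the authors' deposited table. The gamma constant genes are related copies too, and these 3 summed to 19.7 and 24.8 FPKM, 1.26 times as much in PTBP1_KO. That factor and the 1.13 of Trdc lie below the 1.41 of the beta constant genes and the 1.58 of Trac, but with 1 value per group the difference between the lineages was not tested.

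The variable segments of the gamma locus are short and low, and their factors were the largest among the tested receptor rows. Tcrg-V7, the segment that dominates gamma delta cells of the mouse small intestine in this naming, was listed at 0.819 FPKM in WT and 4.73 in PTBP1_KO, a log2 fold change of 2.53 with p = 0.0714 in the authors' deposited table. Tcrg-V4 had 1.40 and 3.20 FPKM, with a log2 fold change of 1.20, p = 0.0457 and q = 0.9998 in the authors' deposited table. Both lie in 1 locus of the authors' counting, so their reads may be split in an uncertain way. Tcrg-V1 had 0.366 and 0.977 FPKM with a log2 fold change of 1.42 and p = 0.110 in the authors' deposited table. Tcrg-V3 was listed at 0 in WT and 0.0602 in PTBP1_KO, Tcrg-C3 at 0.123 and 0.0314, and Tcrg-V5 and Tcrg-V6 at 0 in both.

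Of the other surface proteins, all 9 were higher and 1 rose. Cd7 (ENSMUSG00000025163.6, chromosome 11, 121036747 to 121039418, minus strand), an immunoglobulin-family protein of T and NK cells, had 19.5 FPKM in WT and 38.1 in PTBP1_KO. In the authors' deposited table its log2 fold change was 0.97 with p = 5e-05 and q = 0.0125. Ptprc, the leukocyte phosphatase CD45, had 5.96 and 9.26 FPKM with p = 0.0230 and q = 0.787 in the authors' deposited table. Cd96, a receptor for nectin-family ligands, had 0.734 and 1.24 FPKM with p = 0.0204 in the authors' deposited table. The adhesion protein Cd2 had 1.18 and 1.78 FPKM, the co-receptor Cd6 had 0.892 and 1.13, and the activation and retention marker Cd69 had 0.605 and 0.858. Cd160, a receptor found on intraepithelial and NK cells, had 1.86 and 3.22 FPKM in a locus shared with Gpr89 and Pdzk1. Klrd1, the CD94 chain of NKG2 receptors, had 3.01 and 3.75 FPKM. Klre1, a lectin-like receptor of the same gene complex, was the lowest and least different, with 0.303 and 0.373 FPKM and a log2 fold change of 0.30 with p = 0.565 in the authors' deposited table.

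The 5 tested signalling members were higher by 1.18 to 1.48 times, and 0 of them had an unadjusted p below 0.05 in the authors' deposited table. Lck, the kinase bound to CD8, was the highest, with 5.79 FPKM in WT and 6.95 in PTBP1_KO and a log2 fold change of 0.26 with p = 0.409 in the authors' deposited table. Zap70, which docks on the phosphorylated CD3 chains, showed the largest change, 1.31 and 1.93 FPKM, with a log2 fold change of 0.57 and p = 0.0949 in the authors' deposited table. The scaffold Lat had 3.12 and 4.30 FPKM and the adaptor Skap1 had 1.38 and 2.02. Rhoh, a GTPase of blood cells, had 0.803 and 0.951 FPKM, with the smallest log2 fold change of the role, 0.24 with p = 0.488, in the authors' deposited table. Themis, needed for thymic selection, was listed at 0.147 and 0.192 FPKM and was not tested.

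Among homing and retention genes the chemokine receptor Ccr4 rose from a low level. Ccr4 (ENSMUSG00000047898.7, chromosome 9, 114490316 to 114504916, minus strand), the receptor for CCL17 and CCL22, had 0.108 FPKM in WT and 0.956 in PTBP1_KO. The authors' deposited table gives a log2 fold change of 3.14 with p = 5e-05 and q = 0.0125, and this call is lost when 1 FPKM is required in the higher group. Itgae, the alpha E integrin chain CD103, had 1.71 and 3.57 FPKM, with a log2 fold change of 1.06, p = 0.0268 and q = 0.856 in the authors' deposited table. The gene Haspin shares the Itgae locus in the authors' counting. Itgb7, its partner chain, had 3.55 and 4.68 FPKM, and the authors' deposited table gives a log2 fold change of 0.40 with p = 0.467. Ccr9, which guides lymphocytes to the small intestine, had 0.899 and 1.54 FPKM in a locus shared with 5 other genes of at least 1 FPKM.

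The transcription factors and the cytokine receptor chain were all higher, 4 of 4, and 3 of them had an unadjusted p below 0.05 in the authors' deposited table without passing the threshold. Ikzf3, the lymphoid factor Aiolos, had 2.06 FPKM in WT and 4.09 in PTBP1_KO, with a log2 fold change of 0.99, p = 0.00975 and q = 0.523 in the authors' deposited table. Il2rb, the shared beta chain of the IL-2 and IL-15 receptors, had 0.999 and 1.67 FPKM with p = 0.00270 and q = 0.244 in the authors' deposited table. Runx3 had 0.692 and 1.11 FPKM with p = 0.0266 in the authors' deposited table. In the authors' deposited table Tbx21, the gene of T-bet, had the smallest log2 fold change of the role, 0.51 with p = 0.172, at 0.424 and 0.603 FPKM.

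Genes outside the rule place these values among other cells of the preparation. Of 34 other tested T cell genes 28 were higher and 6 lower in PTBP1_KO, with a median log2 ratio of 0.20. The summed level of the whole list was nearly the same, 91.3 FPKM in WT and 91.5 in PTBP1_KO. An unadjusted p below 0.05 in the authors' deposited table was held by 14 of the 34, of which 12 were higher and 2 lower. Of the 34, 1 rose, Ets1, a T cell transcription factor, from 2.14 to 3.71 FPKM, with q = 0.0125 in the authors' deposited table. Of the highest in level, Fyb had 20.0 FPKM in WT and 14.3 in PTBP1_KO and Bcl11b had 9.61 and 10.1, and neither was called. Cd4, the helper co-receptor, was low, at 0.629 and 0.761 FPKM. Of 33 tested genes of the second list, further intraepithelial lymphocyte and cytotoxic genes, 26 were higher, 0 passed the threshold and 8 had an unadjusted p below 0.05 in the authors' deposited table, with a median of 0.19. Its highest genes were Lamp1 (177.9 and 205.1 FPKM), Jaml (41.6 and 40.8) and Id2 (22.6 and 22.3), and which cells made these reads was not measured. Of 254 receptor segment rows outside the rule 17 were tested, 15 were higher and 2 lower. Trav16n and Trbv12-2 rose, both listed at 0 in WT and at 0.788 and 0.615 FPKM in PTBP1_KO, and so both below 1 FPKM. Of the 17, 5 had an unadjusted p below 0.05 in the authors' deposited table, 4 of them higher and 1 lower.

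Markers of other blood cells were mostly higher as well, and their part in the members' result was not tested. Among 20 pan-leukocyte genes 18 were higher, with a summed level of 131.0 FPKM in WT and 154.8 in PTBP1_KO. Laptm5, a lysosomal protein of leukocytes, rose from 4.38 to 7.79 FPKM with q = 0.0305 in the authors' deposited table. Of 16 tested B cell and plasma cell markers 14 were higher with a median log2 ratio of 0.40, close to that of the members, 0 passed the threshold and 7 had an unadjusted p below 0.05 in the authors' deposited table. Their sum was 227.0 and 303.2 FPKM, most of it Igkc. Of 12 tested macrophage and dendritic cell markers 9 were higher, with sums of 26.6 and 28.4 FPKM. Of 4 tested mast cell and granulocyte markers 3 were higher, with a median log2 ratio of 0.53, above that of the members. Sums of that list were 18.3 and 31.8 FPKM, and Mcpt1 and Mcpt2 led it. Of the 4, 0 were called and 3 had an unadjusted p below 0.05 in the authors' deposited table. Natural killer cells share many members, but their defining genes Ncr1, Klrb1c and Klrg1 were near 0, at 0.0420, 0.144 and 0.0470 FPKM in WT and 0.156, 0.0682 and 0.0382 in PTBP1_KO. Both tested genes of that list were higher.

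Epithelial genes lay close to the median of all genes, and stromal markers were mixed. Of 13 epithelial genes 8 were higher and 5 lower, at 0.906 to 1.16 times the WT value, with a median of 0.04 and 0 calls, and 0 had an unadjusted p below 0.05 in the authors' deposited table. Their sum was 8699 FPKM in WT and 9251 in PTBP1_KO. Of 7 tested endothelial and stromal markers 3 were higher and 4 lower, with a median of -0.19 and 0 calls. The 4 with an unadjusted p below 0.05 in the authors' deposited table, Col3a1, Dcn, Col1a2 and Col1a1, were lower in PTBP1_KO.

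**Figure D2:**
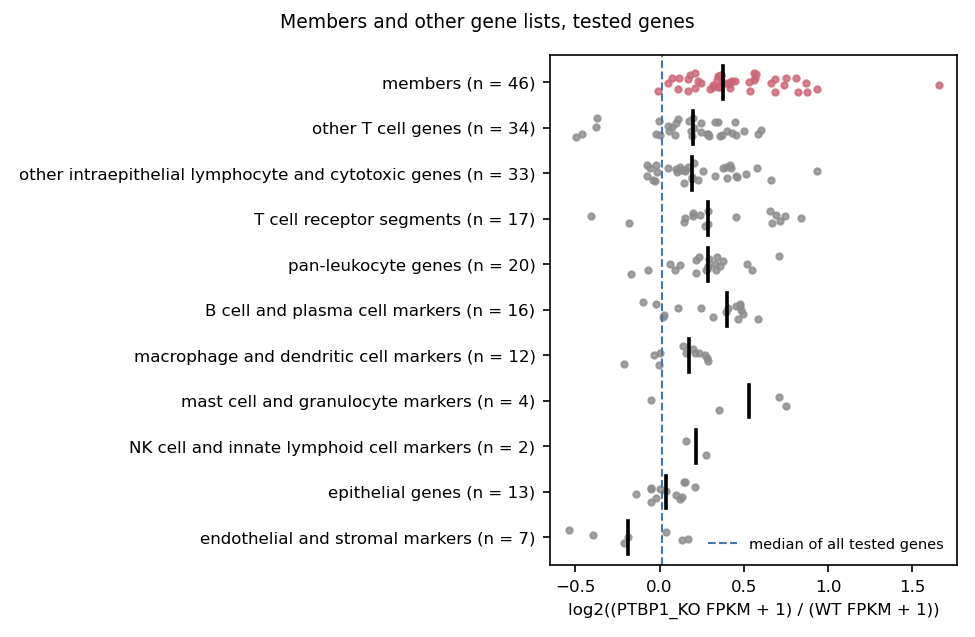
Log2((PTBP1_KO + 1)/(WT + 1)) of FPKM for tested genes, 1 point per gene, in the members (red) and in 10 other lists (grey), with black bars at each list's median and a dashed line at the median of all tested genes, 0.02. The members' median is 0.38, that of B cell and plasma cell markers 0.40 and that of 4 mast cell and granulocyte markers 0.53. Epithelial genes centre on 0.04. Points are genes of the same pooled samples and not replicates.

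Values per library came only from the splicing tables, which count including and skipping reads in 6 libraries, split into 2 sets whose genotype the headers do not name. The libraries are therefore described together and no direction by genotype is given. For each gene the skipped exon event with the most reads was taken, and its reads were scaled to the total of the library over all skipped exon events (32226951 to 39774266 reads), which gives RPM. Gzma had between 21.8 and 121.3 RPM, with a median of 80.0. One library stood far below the rest for Gzma, as the next lowest had 54.0. Gzmb ranged from 3.25 through a median of 13.8 to 30.7 RPM, so the highest library exceeded the lowest by 9.47 times. Cd8a ranged from 3.11 through 4.60 to 9.01, and Cd3g from 4.77 through 8.97 to 12.5. Itgb7 and Lat were the most even, with highest to lowest ratios of 1.68 and 1.64.

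Between libraries the members spread widely. An event with a mean of at least 20 reads was available for 20 members, and 16 of them (80.0%) differed at least 2-fold between the lowest and highest library, Ikzf3 included, which had 0 reads in 1 library. Low counts widen such ratios: of the 13 members with a mean of 20 to 100 reads 92.3% differed at least 2-fold, against 57.6% of all 1588 genes of that range, and of the 6 members with more reads than that, Gzma apart, 3 did, against 10.9% of 4954 genes of their range. Gzma, the only member with a higher mean, differed 5.58-fold, where 4.92% of 2380 genes of its range differed at least 2-fold. None of the 9 epithelial genes with such an event did, all of them in that highest range, and their ratios ran from 1.13 to 1.87. The library lowest for Gzma was also the lowest for 11 of the other 19 members, among them Gzmb, Cd3g, Cd8a and Ptprc, while it was the lowest for 14.6% of all 8922 genes. It was also the lowest for 5 of 10 pan-leukocyte genes, 3 of 6 B cell and plasma cell markers and 3 of 9 epithelial genes. All 6 of the B cell and plasma cell markers differed at least 4.76-fold, and 9 of the 10 pan-leukocyte genes at least 2-fold. The median ratio of highest to lowest library was 3.02 for the members, Ikzf3 left out. It was 7.35 for the pan-leukocyte genes and 10.9 for the B cell and plasma cell markers. A wide spread was thus not particular to the members, and these medians were not matched for read depth. The pooled group values above hold these libraries, and what the low library contributes to them was not tested, since its genotype is not named.

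Single libraries weighed heavily on some members. For Ikzf3 the counts ran from 0 through a median of 9.0 to 91 reads, and the highest library held 62.3% of all its reads. For Ptprc they ran from 2 through 30.5 to 99 reads. Il2rb ran from 3 through 21.5 to 55 reads and Skap1 from 1 through 23.0 to 34. At these depths a ratio between libraries carries a large counting error.

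**Figure D3:**
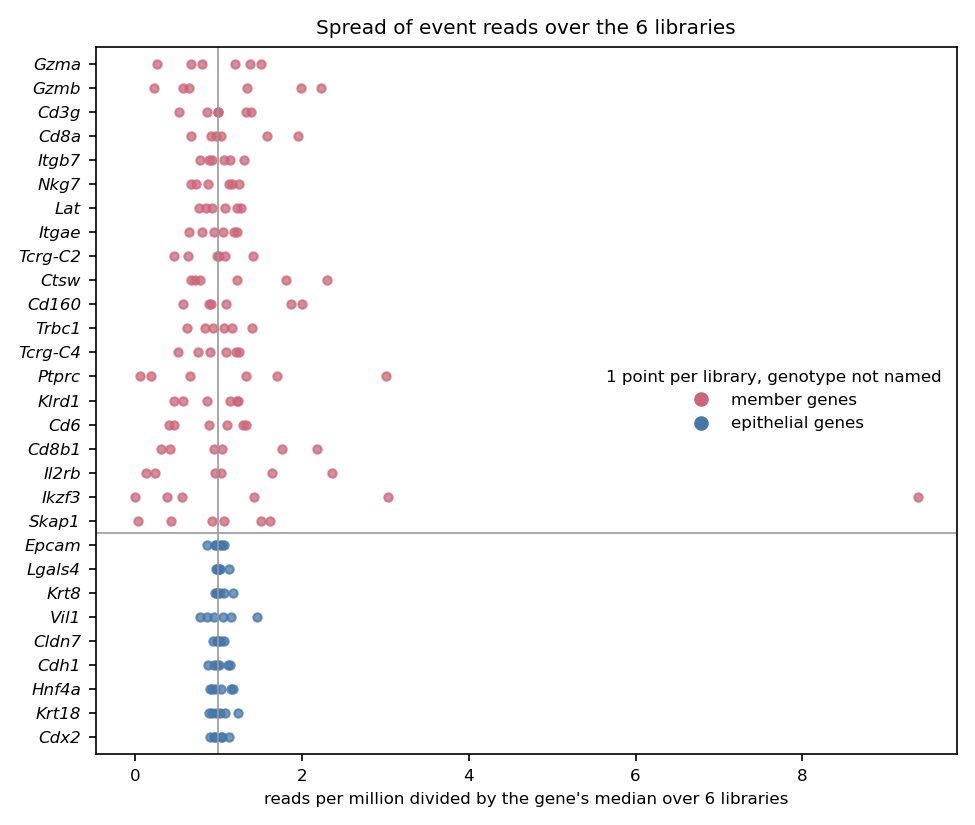
RPM at the best covered skipped exon event of 20 members (red) and 9 epithelial genes (blue), divided by the median of the 6 libraries, with 1 point per library on a linear axis. Member points spread from 0 to more than 9 times the median, Ikzf3 reaching farthest, while epithelial points stay near 1. The genotype of the libraries is not named in these tables.

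Splicing was examined next, since PTBP1 controls exon use. The Cre is made under villin regulatory sequence, and whether it acted in T cells was not measured. Inclusion is the share of transcripts that hold a region, computed here from reads summed over the 6 libraries, each form scaled by its effective length, and an event was called at an FDR below 0.05, a difference of at least 0.1 between the sets and a mean of at least 20 reads. The members had 59 events in 25 genes, of which 47 in 20 genes had that depth, and 2 of the 47 were called, where 1.56% of all events of that depth were. Of the 47, 22 had a pooled inclusion of at least 95%, and 19 lay between 10% and 90%. The best covered events of the other types were a pair of Gzma exons in the mutually exclusive table (mean 2493 reads, inclusion 52.2%), the alternative 3′ splice site of Ctsw (100.7 reads, 99.4%), its alternative 5′ splice site (50.7 reads, 98.4%) and its retained intron (94.2 reads, 36.1%). None of these was called. The Ctsw 3′ splice site and retained intron events cover the same bases, 5466581 to 5467136 of chromosome 19. The 99.4% rests on 1 skipping read among 604, and is not the share of transcripts that keep the intron. The best covered skipped exon event was exon 5 of Gzma, with a mean of 2757 reads and an inclusion of 99.9%, so that exon was almost always used although the mutually exclusive table also lists it.

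Exons of Cd8a, Tcrg-C2 and Ptprc with intermediate inclusion are printed because their use decides which protein form is made. Each is given 5′ to 3′ in lower case with no part marked, from GENCODE M21 transcripts on GRCm38. Exon 4 of Cd8a (chr6:71375888-71375918, plus strand, 31 nt) is coding and is left out in the alpha prime chain, whose cytoplasmic tail is cut short. Exon 2 of Tcrg-C2 (chr13:19305769-19305798, minus strand, 30 nt) is coding in the gamma constant region. Exons 4, 5 and 6 of Ptprc (chr1:138122456-138122584, chr1:138120020-138120166 and chr1:138117754-138117894, minus strand, 129, 147 and 141 nt) are the A, B and C exons that define the CD45R isoforms.
Cd8a exon 4: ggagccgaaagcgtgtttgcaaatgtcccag
Tcrg-C2 exon 2: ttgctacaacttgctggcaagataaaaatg
Ptprc exon 4: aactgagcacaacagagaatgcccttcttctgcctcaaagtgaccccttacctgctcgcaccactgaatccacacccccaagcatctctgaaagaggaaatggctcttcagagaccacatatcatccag
Ptprc exon 5: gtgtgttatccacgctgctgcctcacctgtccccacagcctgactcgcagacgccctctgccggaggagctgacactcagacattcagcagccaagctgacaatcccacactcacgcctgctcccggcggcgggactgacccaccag
Ptprc exon 6: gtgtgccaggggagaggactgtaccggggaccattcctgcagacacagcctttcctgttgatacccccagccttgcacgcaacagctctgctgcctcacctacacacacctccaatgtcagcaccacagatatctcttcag
These exon letters are reference sequence and were not read from the libraries.

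The Cd8a exon was included in 65.6% of transcripts over the 6 libraries (812 inclusion and 351 skipping reads). By library its inclusion ran from 59.9% through a median of 67.8% to 72.1%, and the difference between the sets was -0.02 with an FDR of 1 in the authors' deposited table. Transcripts with and without the exon were thus read in every library. The Tcrg-C2 exon was included at 61.5%, from 54.1% to 65.9% by library, with a difference of 0.04 and an FDR of 1 in the authors' deposited table. In both genes all 6 libraries had at least 20 reads and none lay near 0% or 100%.

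CD45 exon use was mixed. Exon 4 of Ptprc was included at 47.9% between exon 3 and the acceptor of exon 5. Exon 5 was included at 91.7% when read between exons 3 and 6, and at 59.2% between exons 3 and 7. Exon 6 was included at 70.1% between exons 5 and 7 and at 54.7% between exons 3 and 7. As mutually exclusive pairs, the share of exon 5 was 41.7% against exon 7 and 54.5% against exon 6. The lowest library held 2 to 7 reads at these events and the highest 53 to 99, so 3 or 4 libraries of at least 20 reads stand behind the spread. In those, exon 4 inclusion ran from 32.7% to 67.0%. The events share exons and reads and are not separate measurements. B cells also express Ptprc and their markers were read here, so the exon use is that of leukocytes in the preparation and not of T cells alone.

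**Figure D4:**
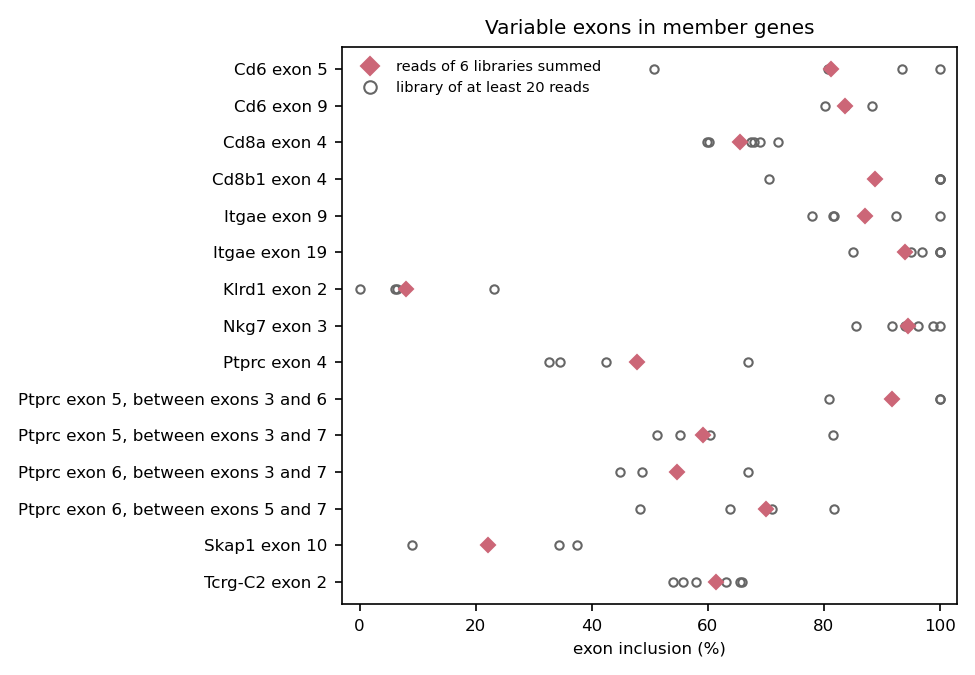
Inclusion in percent of skipped exons in members with a mean of at least 20 reads and a pooled inclusion of 5 to 95%. Diamonds give the value from reads summed over 6 libraries and circles single libraries of at least 20 reads. Cd8a exon 4 and Tcrg-C2 exon 2 stay between 54.1% and 72.1% in all 6 libraries, while Ptprc exons spread wider over fewer libraries.

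Of the called events, exon 5 of Cd6 (chromosome 19, 10797676 to 10797978, minus strand, 303 nt, coding) was included at 81.3%, with a difference of 0.21 between the sets and an FDR of 0.00182 in the authors' deposited table. It had 13 to 46 reads by library, and 10 of its 13 skipping reads came from 1 library. A 175 nt exon of Klrd1 (chromosome 6, 129596547 to 129596721, plus strand), annotated as exon 2 of a transcript marked for nonsense-mediated decay, was included at 8.04%. Its difference was 0.13 with an FDR of 0.0162 in the authors' deposited table, and 12 of its 25 inclusion reads came from 1 library.

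Another 3 events of that depth had an FDR below 0.05 in the authors' deposited table with a smaller difference. These were exon 4 of Cd8b1 (difference -0.05, inclusion 88.8%), exon 19 of Itgae (-0.04, 94.1%) and exon 5 of Ptprc between exons 3 and 6 (-0.06, 91.7%). Here too 1 library held most of the rarer form, 11 of 12 skipping reads for Cd8b1, 10 of 13 for Itgae and 8 of 8 for Ptprc. An alternative 3′ splice site of Klre1 had a difference of 0.31 and an FDR of 0.0137 in the authors' deposited table, but a mean of only 3.83 reads, and was not called.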

How the data were processed

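The authors sequenced polyA RNA of 3 WT and 3 PTBP1_KO samples, and groups were taken from the sample titles. The labels do not say that the samples of a group came from separate mice, so p-values measure the spread between these samples, which may be technical. The submitters' processing notes name mm10, STAR 2.6.1d, Trimmomatic 0.38, bcl2fastq 2.20, Cuffdiff and Cufflinks. In the deposited gene table the authors give 1 FPKM per group, a log2 fold change (PTBP1_KO over WT), a p-value and a q-value. The splicing tables, in MATS layout per the file headers, list reads in 6 libraries, and the caller's version is not given in the sources used here. Their 10 columns of inclusion levels were not used. Whether reads were counted by strand is not given, although the kit keeps strand.

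Genes were called at the authors' q-value below 0.05. Log2((PTBP1_KO + 1)/(WT + 1)) was computed from the deposited FPKM. Pooled inclusion was computed from reads summed over libraries, and the sets were not tested against each other. The members and the gene lists were chosen with earlier results of these data known. Named genes are all members, with p and q for called members, the markers Cd3e, Cd8a and Gzma, the extremes of each role, the members next to the threshold and all tested receptor rows. For other lists the called genes are named, and for T cell lists the 3 highest, of which 1 is not reported here. Cd4, Igkc, Mcpt1, Mcpt2, the natural killer markers and the stromal genes were named after their values were seen, as were the events of Cd8a, Tcrg-C2, Cd8b1, Itgae and Klre1. All 51 identifiers matched GENCODE M21 with their version, and coordinates are 1-based on GRCm38. Python 3.11.15 was used with matplotlib 3.10.9, pandas 2.3.3 and numpy 2.4.6, and the list median and the inclusion were tested on simulated data. Alternatives changed the call rule, the pseudocount, the scaling and the read minimum.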

Additional observations from a re-analysis of the deposited data

How the results depend on the processing

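At q below 0.05, 5 members were called, and at q below 0.01 there were 0, since no q in the authors' deposited table is under 0.0125. With an unadjusted p below 0.05, 16 were called, and with an added absolute log2 fold change of at least 1 only 1, Ccr4. At q below 0.1 the count was 6 and with a minimum of 1 FPKM it was 4. The number of higher members was 45 of 46 and 45 after centring on all genes of at least 1 FPKM, 37 of 38 with at least 1 FPKM and 35 of 36 without the receptor rows matched by prefix. The median log2 ratio of members, 0.38, was 0.59 with a pseudocount of 0.1, 0.62 from the authors' log2 fold changes, 0.42 for members of at least 1 FPKM, 0.36 after centring, and 0.37 both over all members listed and without the receptor rows. Scaling shifted all genes by 0.02. Called splicing events numbered 2, and 4 with a difference of at least 0.05, 1 with at least 0.2, 0 with a mean of 50 reads and 2 with a mean of 10 reads. Of 25 single call checks on the 5 called members 15 kept the call and 10 lost it. These checks changed only the threshold and not the fold. All 5 members share the same p and q, so the checks on q or p alone had to come out alike for each. The tally is therefore no measure of how firm a call is. No paired analysis was possible because the gene table holds 1 value per group and the splicing headers name no genotype, and for the same reason no library could be left out of the gene values. The depth behind the FPKM values is unknown, and members below 1 FPKM rest on few reads.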
